A study of Mus musculus with 18 samples.

Results

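The genes examined here were 8 genes of the phagocyte NADPH oxidase and of the enzymes that remove its products, namely Cybb, Cyba, Ncf1, Ncf4, Rac2, Sod1, Sod2 and Cat, of the 38887 genes in each expression table. They were chosen by name, found by gene symbol and matched to the expression tables by Ensembl identifier, and all 8 were found and tested in every comparison. RNA came from bone marrow-derived macrophages (BMMs), which are macrophages grown from mouse marrow cells for 6 days in 50 ng/ml M-CSF, and was sequenced from untreated cells and from cells given 100 ng/ml lipopolysaccharide (LPS) for 4 h. Female C57BL/6J mice of 10 to 23 weeks were used, with 3 mice per group and 18 libraries in all. WT mice were B6.129P2-Lyz2tm1(cre)Ifo/J mice, which carry Cre recombinase at the endogenous lysozyme M gene Lyz2. GILZ KO mice carried the same Cre together with a loxP-flanked exon 6 of Tsc22d3, the gene of glucocorticoid-induced leucine zipper (GILZ). GILZ TG mice carried the Cre and a Gilz-1 cDNA in the ROSA26 locus behind a loxP-flanked stop. By these descriptions all 3 genotypes carried the Cre, which acts in cells in which the Lyz2 promoter has been active, but the Lyz2 RNA given below was not alike in them. Libraries held 14583055 to 38557029 reads assigned to genes, with a median of 24450362. GILZ KO after LPS was the shallowest group, with a median of 15491518 reads. P-values measured the spread between mice of one genotype.

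The phagocyte NADPH oxidase, or NOX2 complex, moves electrons from NADPH across a membrane onto oxygen and so makes superoxide in the phagosome or outside the cell. Its catalytic subunit gp91phox, from Cybb, sits in the membrane with p22phox, from Cyba, and the pair is silent until cytosolic subunits, among them p47phox (Ncf1) and p40phox (Ncf4), and a Rac GTPase join it. Superoxide dismutases turn superoxide into hydrogen peroxide, Sod1 in the cytosol and Sod2 in mitochondria, and catalase, from Cat, breaks the peroxide down to water and oxygen.

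Tsc22d3 was examined first, as it tests the labels. Its TPM (a transcript level scaled by transcript length and library total) was 15.8, 14.9 and 18.8 in untreated WT, 1.89, 2.81 and 2.31 in GILZ KO and 156, 159.8 and 152 in GILZ TG. After LPS it was 4.56, 5.81 and 5.09 in WT, 2.96, 3.28 and 2.50 in GILZ KO and 127, 141 and 127 in GILZ TG. The genotypes did not overlap in either treatment and were ordered as their labels say, although WT and GILZ KO lay closer together after LPS. In that comparison edgeR did not call Tsc22d3, although its unadjusted p was under 0.05 (9.63% of all genes), while DESeq2 called it lower in GILZ KO (0.822%). On normalized counts 17% of all genes did not overlap between these groups. Lyz2, which the Cre allele occupies, went another way. In untreated WT its TPM was 11048, 12070.2 and 15401, while the 6 untreated GILZ KO and GILZ TG libraries had between 17.2 and 53.1. After LPS the WT values were 6766, 8034 and 9466, and those of the other genotypes lay between 22.2 and 70.3. Both modified genotypes thus lacked most of the Lyz2 RNA that WT had. These values go against one state of the Lyz2 locus in all 3 genotypes, and how many Cre alleles the WT mice carried is not given in the sources used here, so that in any comparison with WT the state of the Lyz2 locus and the Gilz genotype cannot be told apart. GILZ KO and GILZ TG were alike in Lyz2 and differed in Gilz.

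Macrophage markers were abundant in every library. The TPM of the 8 listed macrophage markers, with Cd68 as the most abundant, summed to between 3971 and 5046, and none of them was at 0 in any library. GILZ TG replicates 1 and 2 stood apart in markers of other marrow cells. The summed TPM of 12 neutrophil lineage markers, of which S100a9 was the most abundant, was 204, 499 and 89.1 in untreated GILZ TG and 229, 527 and 99.9 in GILZ TG after LPS, against 36.4 to 90.2 in the WT and GILZ KO libraries. The sum of 8 stromal fibroblast markers, with Sparc as the leading gene, was 148, 173 and 15.0 in untreated GILZ TG and 119, 162 and 14.3 after LPS, and 6.66 to 31.8 in the other genotypes. That of 5 B cell markers, led by Ighm over all libraries, was 91.5, 153 and 35.9 in untreated GILZ TG and 79.4, 145 and 25.5 after LPS, and 16.7 to 35.4 in the other genotypes. In GILZ TG against untreated WT, edgeR called 0 of the 6 neutrophil lineage markers it tested (0.642% of all genes). DESeq2 called 2 of them higher (2.47% of all genes). By edgeR, 5 were higher with an unadjusted p under 0.05 (14.1% of all genes), and the median log2 fold change over the 6 was 2.27. Of 7 stromal fibroblast markers tested there, edgeR and DESeq2 called 0. All 7 were higher with an unadjusted p under 0.05 by edgeR, at a median of 2.21. After LPS, 6 of 7 had such a p (15.2% of all genes), at a median of 2.13 over the 7, and edgeR called 0 and DESeq2 1. Ngp, a granule protein of developing neutrophils, had a TPM of 33.9, 81.4 and 11.03 in untreated GILZ TG and 9.65, 11.5 and 3.98 in WT, while Ly6g was at 0 in all libraries but GILZ TG replicate 2, where it was at 0.24 TPM or less. Of the 3 B cell markers tested, edgeR called Igkc, an immunoglobulin light chain gene, higher by 6.27 (adjusted p = 0.0251), its TPM being 42.3, 97.4 and 11.4 in untreated GILZ TG and 1.46 or less in untreated WT and GILZ KO. Ighm was at 0.66 (edgeR adjusted p = 0.334). Cd79b, a part of the B cell receptor, lay the other way, at -0.36 (edgeR adjusted p = 0.273), and it was called in untreated GILZ KO against GILZ TG, at 0.60 (edgeR adjusted p = 0.0401). That comparison also held edgeR calls for 2 of 6 neutrophil lineage, 4 of 7 stromal fibroblast and 1 of 8 macrophage markers. These were all lower in GILZ KO, beside 4.94% of all genes called. DESeq2 called 4, 7 and 1 markers of these lists lower there, beside 9.65%. After LPS, edgeR called 0 of 7, 2 of 7 and 0 of 8 (2.6% of all genes), and DESeq2 2, 5 and 1 (5.88%), again lower in GILZ KO. T cell and erythroid markers summed to 3.56 or less in every library and endothelial markers, led by Kdr, to 12.2 or less. The neutrophil lineage also uses the NADPH oxidase, and the part of these cells in the values of GILZ TG was not tested. In bulk RNA, fewer cells of a type and less RNA per cell cannot be told apart.

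LPS activates macrophages through Toll-like receptor 4, and its effect on the oxidase genes was the largest difference among these 8 genes. All 6 genes taken as a check of the treatment (Tnf, Il1b, Il6, Nos2, Cxcl10 and Ccl5) were higher after LPS in each genotype by the edgeR quasi-likelihood test, with Benjamini-Hochberg adjustment over all genes and a threshold of 0.05. Of the 8 members, 6 rose in each genotype on counts normalized by TMM. TMM scales libraries on the assumption that most genes do not change, which was not tested here. Cybb and Sod2 rose most, by 8.15-fold and 5.99-fold in WT. Ncf1, Rac2, Ncf4 and Cyba rose by 1.86-fold, 1.77-fold, 1.54-fold and 1.27-fold in WT, and Sod1 and Cat did not pass the test. Among all 13169 genes tested, 33.5% were called higher in WT, 33.2% in GILZ KO and 33.6% in GILZ TG, and 68.6%, 68.5% and 68.7% were called in either direction, so that a call in either direction was not particular to these genes. The median log2 fold change of the members was 0.73 in WT, 0.76 in GILZ KO and 0.67 in GILZ TG, beside -0.02 for all genes in each.

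The direction of the small changes depended on the scale. TMM factors were 1.24 to 1.28 in untreated libraries and 0.756 to 0.828 after LPS. On log2(TPM + 1), which follows the library total, the median of all genes after LPS was lower by 0.57 in WT, 0.59 in GILZ KO and 0.57 in GILZ TG, and with library totals in place of TMM factors by 0.70, 0.66 and 0.69. On log2(TPM + 1) limma called 4 members higher (Cybb, Sod2, Ncf1 and Rac2) and 3 lower (Cyba, Sod1 and Cat) in WT and in GILZ KO. In GILZ TG it called the same genes except Rac2. Of the 11683 genes tested on this scale, 16.2% were called higher and 68.4% lower in WT, 15.4% and 69.4% in GILZ KO and 15.6% and 68.5% in GILZ TG. A change is therefore given below on both scales, and only Cybb, Sod2 and Ncf1 rose past the threshold in every genotype on both.

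Cybb, the electron-carrying subunit of the oxidase (ENSMUSG00000015340, GRCm38 chrX:9435252-9487771, minus strand), was the most responsive member. Its TPM in untreated BMMs was 175, 187 and 176 in WT, 228, 247 and 211 in GILZ KO and 173, 162 and 197 in GILZ TG. After LPS it was 1043, 919 and 928 in WT, 1110, 1176 and 1059 in GILZ KO and 859, 887 and 1017 in GILZ TG. Every LPS library was above every untreated one, and by TPM GILZ KO had the highest values in both treatments. On TMM counts GILZ KO overlapped with both other genotypes after LPS. The mean effective length of Cybb, by which TPM is divided, was also shortest in GILZ KO, at 3304 bases untreated and 3181 after LPS. It was 3457 and 3402 in WT and 3437 and 3338 in GILZ TG. The libraries of GILZ KO and GILZ TG overlapped, GILZ TG replicate 1 being at 3146 untreated and 3197 after LPS. Effective length was not tested between genotypes. The log2 fold change on TMM counts was 3.03 ± 0.13 (SE) in WT, 2.87 ± 0.13 in GILZ KO and 2.97 ± 0.13 in GILZ TG (n = 3 per group), with edgeR adjusted p-values of 9.99e-13, 2.11e-12 and 1.24e-12. The values on log2(TPM + 1) were 2.41, 2.28 and 2.37. By mean TPM among all genes, Cybb moved from rank 876 to rank 170 in WT, from 696 to 138 in GILZ KO and from 925 to 192 in GILZ TG.

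Sod2, the mitochondrial manganese superoxide dismutase (ENSMUSG00000006818, chr17:13006846-13040063, plus strand), was the other gene with a large response. Untreated, its TPM was 90.0, 105 and 116 in WT, 98.8, 115 and 105 in GILZ KO and 72.0, 81.9 and 101 in GILZ TG. After LPS, it was 375, 387 and 445 in WT, 459.9, 456 and 456 in GILZ KO and 318, 314 and 398 in GILZ TG. All LPS libraries were above all untreated ones, and GILZ KO held the 3 highest values after LPS. The log2 fold change was 2.58 ± 0.15 (SE) in WT, 2.74 ± 0.15 in GILZ KO and 2.65 ± 0.15 in GILZ TG on TMM counts, with edgeR adjusted p-values of 4.68e-11, 2.57e-11 and 3.48e-11, and 1.95, 2.09 and 2.01 on log2(TPM + 1).

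Cybb and Sod2 had the largest response to LPS, and Ncf1 was the only member that edgeR called between genotypes. The 250 bases before the RefSeq transcription start (GRCm38.p6) are shown for these members. They are written 5′ to 3′ on the strand of the gene, from chrX:9469325-9469574 (minus), chr17:13007589-13007838 (plus) and chr5:134229626-134229875 (minus). Capitals mark matches on either strand to letters bound by known factors: AP-1 (TGANTCA), interferon regulatory factors (IRF, GAAANNGAA), PU.1 (GAGGAA), the CCAAT box (CCAAT), the GC box (GGGCGG) and NF-kB.
Cybb: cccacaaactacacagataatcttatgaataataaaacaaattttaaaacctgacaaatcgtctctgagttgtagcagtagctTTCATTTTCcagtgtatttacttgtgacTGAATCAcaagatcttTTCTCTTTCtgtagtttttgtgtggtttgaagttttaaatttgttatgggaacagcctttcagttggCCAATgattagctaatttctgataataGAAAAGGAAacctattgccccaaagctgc
Sod2: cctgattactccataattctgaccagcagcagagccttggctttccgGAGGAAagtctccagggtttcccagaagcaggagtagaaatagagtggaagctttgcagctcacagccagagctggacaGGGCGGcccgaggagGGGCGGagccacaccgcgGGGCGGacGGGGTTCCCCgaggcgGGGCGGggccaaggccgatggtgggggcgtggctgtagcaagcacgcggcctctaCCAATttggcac
Ncf1: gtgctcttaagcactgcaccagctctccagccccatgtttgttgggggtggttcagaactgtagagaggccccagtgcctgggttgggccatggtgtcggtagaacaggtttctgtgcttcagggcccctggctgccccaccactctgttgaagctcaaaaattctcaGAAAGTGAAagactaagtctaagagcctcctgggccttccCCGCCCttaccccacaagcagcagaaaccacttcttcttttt
The Cybb sequence held 3 IRF matches, at 167, 123 and 29 bases before the start, an AP-1 match at 139 and a CCAAT box at 56, but no GC box. Its GC content was 34.0%, against a median of 52.4% in 32851 mouse promoters of this length. The Sod2 sequence was of another kind, with a GC content of 63.6%, 4 GC boxes between 124 and 67 bases before the start, and the NF-kB match among them at 83. It also had a PU.1 match at 203 and a CCAAT box at 12. An NF-kB match at 116 and a PU.1 match at 235 also lay before Cat, which edgeR did not call after LPS. In Ncf1, an IRF match lay at 82 and a GC box at 42. Among all promoters, 7.13% held an IRF match, 6.75% an AP-1 match, 7.25% an NF-kB match, 23.3% a PU.1 match, 33.8% a CCAAT box and 32.7% a GC box. Of the 8 members, 6 had a promoter in this table, and in 5 of these GC boxes were found, Cybb being the exception. The matches in the sequences shown did not overlap each other. A match is a run of letters only, and binding was not measured.

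Cyba, the membrane partner of Cybb (ENSMUSG00000006519, chr8:122424776-122432930, minus strand), was already the most abundant member in untreated cells. Its untreated TPM was 1078, 1099 and 1101 in WT, 1062, 1057 and 1124 in GILZ KO and 1166, 1156 and 1238 in GILZ TG. After LPS, the values were 869.7, 946 and 864 in WT, 886, 945 and 1033 in GILZ KO and 1088, 937 and 920.4 in GILZ TG. On TPM the LPS libraries were thus below the untreated ones of their own genotype. The TMM log2 fold change was 0.34 in WT, 0.46 in GILZ KO and 0.36 in GILZ TG (edgeR adjusted p = 0.00118, 7.88e-05 and 0.000767), whereas on log2(TPM + 1) it was reversed, at -0.29, -0.18 and -0.28 (limma adjusted p = 0.000777, 0.0197 and 0.00117). On either scale Cyba moved far less than Cybb. The ratio of Cybb to Cyba TPM, a quantity within a library that no library scaling alters, was 0.165 ± 0.006 (SD, n = 3) in untreated WT and 1.08 ± 0.114 after LPS. It was 0.212 ± 0.023 and 1.17 ± 0.129 in GILZ KO and 0.149 ± 0.010 and 0.947 ± 0.158 in GILZ TG. The RNA of the 2 membrane subunits was therefore unequal without treatment and near parity at 4 h with LPS.

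**Figure D1:**
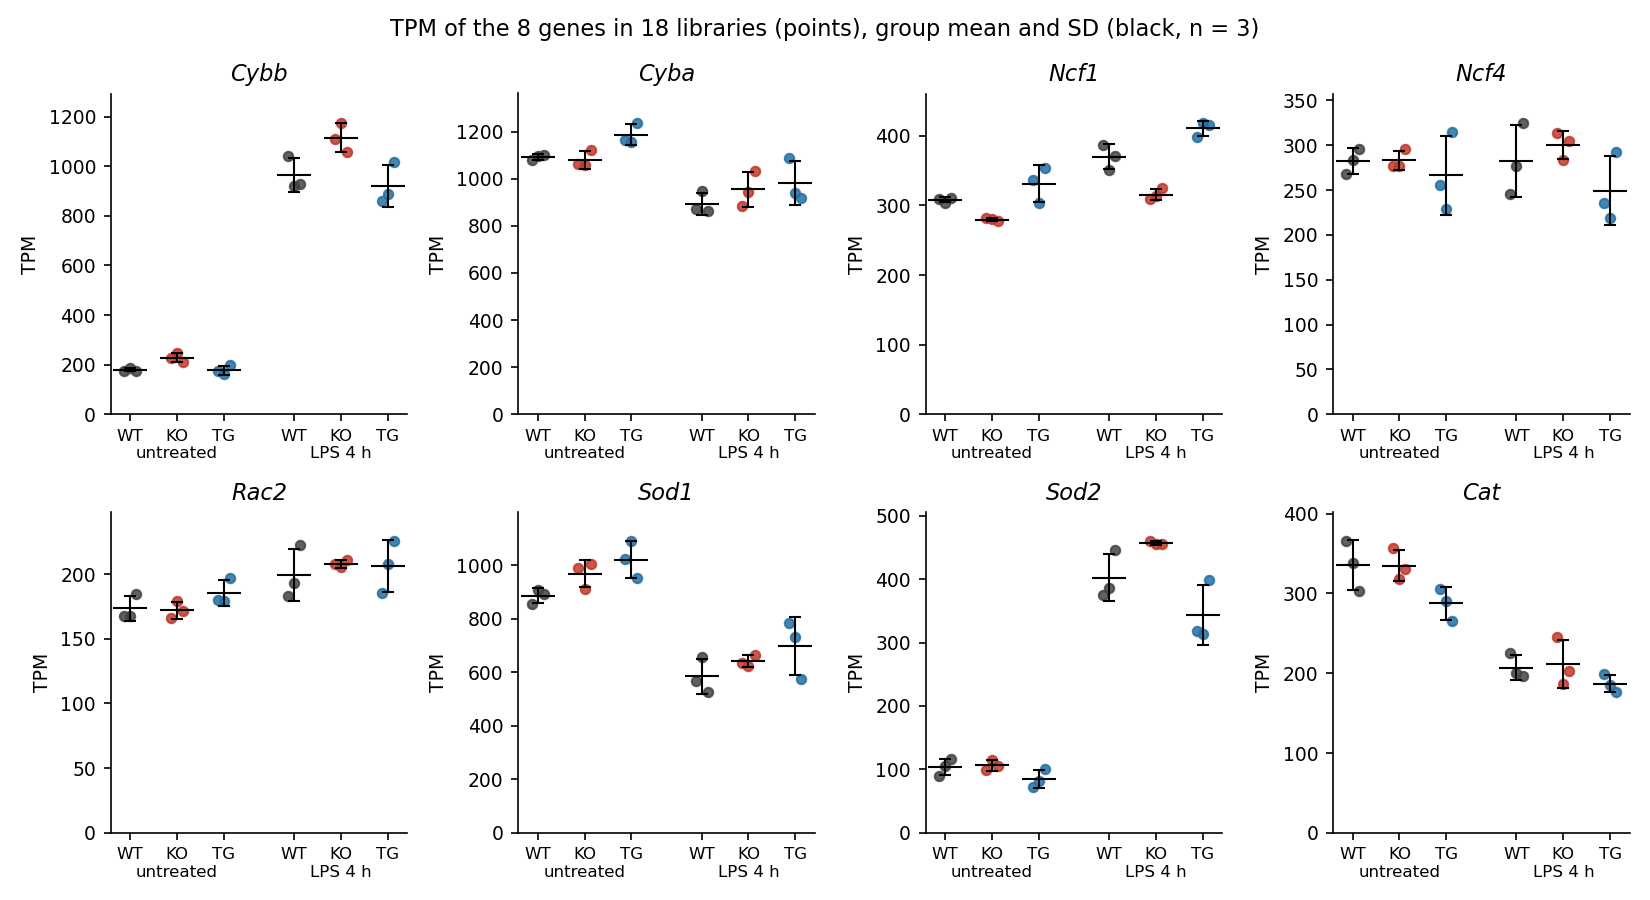
TPM of the 8 members in each of the 18 libraries, by genotype and treatment, with each point a library and black marks for the mean and SD of 3. Cybb and Sod2 are higher in all LPS libraries than in all untreated ones, Cyba, Sod1 and Cat have lower TPM after LPS within each genotype, and Ncf1 has lower TPM in GILZ KO than in WT and GILZ TG in both treatments.

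Among the cytosolic subunits, Ncf1 responded most steadily. Ncf1 (ENSMUSG00000015950, chr5:134220053-134229625, minus strand) encodes the organizer p47phox, whose phosphorylation starts assembly of the complex. Untreated WT had a TPM of 309.7, 304 and 311, GILZ KO of 282, 279.8 and 277 and GILZ TG of 337, 303 and 354. After LPS, WT had 387, 351 and 371, GILZ KO 309, 313 and 325 and GILZ TG 398, 419 and 415. The LPS libraries were above the untreated ones within each genotype, and GILZ KO was the lowest genotype in both treatments. The log2 fold change for LPS was 0.89 in WT, 0.83 in GILZ KO and 0.91 in GILZ TG on TMM counts (edgeR adjusted p = 1.16e-09, 3.29e-09 and 8.59e-10). It was 0.26, 0.17 and 0.31 on log2(TPM + 1), with limma adjusted p-values of 0.000259, 0.00637 and 4.83e-05.

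Ncf4 (ENSMUSG00000071715, chr15:78244801-78262580, plus strand) encodes p40phox, the subunit that binds the phagosome lipid PI(3)P. Its TPM ranged from 229 to 314 in untreated libraries and from 219 to 325 after LPS, so that the treatments overlapped. On TMM counts it rose by 0.62, 0.69 and 0.56 on the log2 scale in WT, GILZ KO and GILZ TG (edgeR adjusted p = 0.000252, 0.000101 and 0.000703). On log2(TPM + 1) the changes were -0.01, 0.09 and -0.09 and none passed the limma test, the direction being reversed in WT and GILZ TG.

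Rac2 (ENSMUSG00000033220, chr15:78559167-78572783, minus strand) is the Rac GTPase of blood cells. Its TPM was 166 to 197 without treatment and 183 to 225 after LPS. The log2 fold change was 0.83 in WT, 0.91 in GILZ KO and 0.79 in GILZ TG on TMM counts (edgeR adjusted p = 2.63e-07, 8.52e-08 and 4.76e-07). It was 0.20, 0.27 and 0.15 on log2(TPM + 1), with limma adjusted p-values of 0.0268, 0.00367 and 0.0815. Scaled by library totals, the call was lost in WT, at 0.15, and in GILZ TG, at 0.11 (edgeR adjusted p = 0.102 and 0.225), and kept in GILZ KO, at 0.27 (0.00629). Relative to Rac1, the widely expressed GTPase that can take the same place, the TPM of Rac2 was 0.479 ± 0.013 (SD, n = 3) in untreated WT and 0.669 ± 0.059 after LPS. In GILZ KO the ratio was 0.515 ± 0.010 and 0.742 ± 0.029, and in GILZ TG 0.530 ± 0.019 and 0.708 ± 0.048, so that Rac1 remained the more abundant of these GTPases by TPM in each group.

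Sod1, the copper-zinc superoxide dismutase of the cytosol (ENSMUSG00000022982, chr16:90220754-90226329, plus strand), did not share the response of Sod2. The TPM was 856, 909 and 895 in untreated WT, 992, 911 and 1005 in GILZ KO and 1024, 1091 and 952 in GILZ TG, and after LPS 567, 659 and 528, 636, 622 and 666, and 785, 730.4 and 576. All LPS libraries lay below all untreated ones in TPM. On TMM counts the log2 fold changes of 0.03, 0.04 and 0.08 did not pass the edgeR test (adjusted p = 0.783, 0.719 and 0.481), with a 95% confidence interval of -0.17 to 0.23 in WT, whereas on log2(TPM + 1) they were -0.61, -0.59 and -0.56 (limma adjusted p = 2.85e-05, 3.45e-05 and 6.21e-05). These TPM decreases were close to the shift of all genes given above. Within a library, the ratio of Sod2 to Sod1 TPM was 0.116 ± 0.012 (SD, n = 3) in untreated WT and 0.698 ± 0.132 after LPS. It was 0.111 ± 0.014 and 0.713 ± 0.026 in GILZ KO and 0.084 ± 0.020 and 0.509 ± 0.159 in GILZ TG. Sod1 RNA thus exceeded Sod2 RNA in each of the 18 libraries.

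Cat (ENSMUSG00000027187, chr2:103453849-103485160, minus strand) encodes the peroxisomal enzyme catalase. Its TPM was 366, 339 and 303 in untreated WT, 357, 318 and 330.3 in GILZ KO and 306, 290.3 and 266 in GILZ TG. After LPS it was 225, 199.9 and 196 in WT, 245, 186 and 202 in GILZ KO and 199, 185 and 177 in GILZ TG. No LPS library reached the lowest untreated one. On TMM counts the log2 fold changes were -0.05, -0.06 and 0.02 and did not pass the edgeR test (adjusted p = 0.582, 0.53 and 0.842), and on log2(TPM + 1) they were -0.69, -0.67 and -0.62, all past the limma threshold and close to the shift of all genes.

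**Figure D2:**
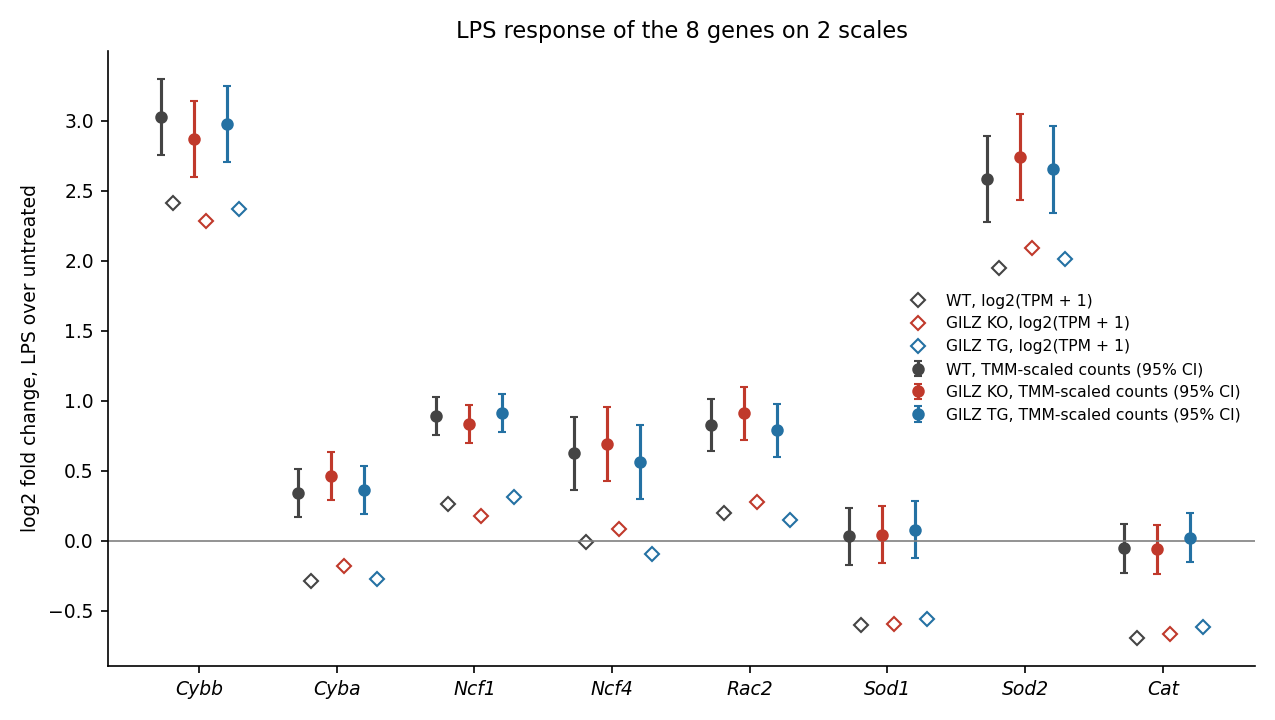
Log2 fold change of each member after LPS in WT, GILZ KO and GILZ TG on TMM counts, with 95% confidence intervals, and on log2(TPM + 1) beside it. On TMM counts Cybb lies near 3 and Sod2 between 2 and 3, and Cyba, Sod1 and Cat fall below 0 on log2(TPM + 1).

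Ordered by mean TPM, untreated WT cells had Cyba (1092), Sod1 (886), Cat (336), Ncf1 (308), Ncf4 (282), Cybb (179.6), Rac2 (173) and Sod2 (104). Cat and Ncf1 overlapped between libraries, as did Cybb and Rac2, while the other neighbours did not. After LPS the order in WT was Cybb (963), Cyba (893), Sod1 (585), Sod2 (402), Ncf1 (369.9), Ncf4 (283), Cat (207) and Rac2 (199). Here Cybb and Cyba overlapped, as did Sod2 and Ncf1, and Cat and Rac2. Untreated GILZ KO differed from this order in the place of Ncf4 (283) and Ncf1 (279.5), which were adjacent and overlapped, and untreated GILZ TG in that Ncf1 (331) was above Cat (288) and Rac2 (185) above Cybb (177), and both pairs overlapped. After LPS, GILZ KO had the order of WT, and in GILZ TG Cyba (982) was above Cybb (921), Ncf1 (411) above Sod2 (344) and Rac2 (206) above Cat (187), with overlap in each pair.

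**Figure D3:**
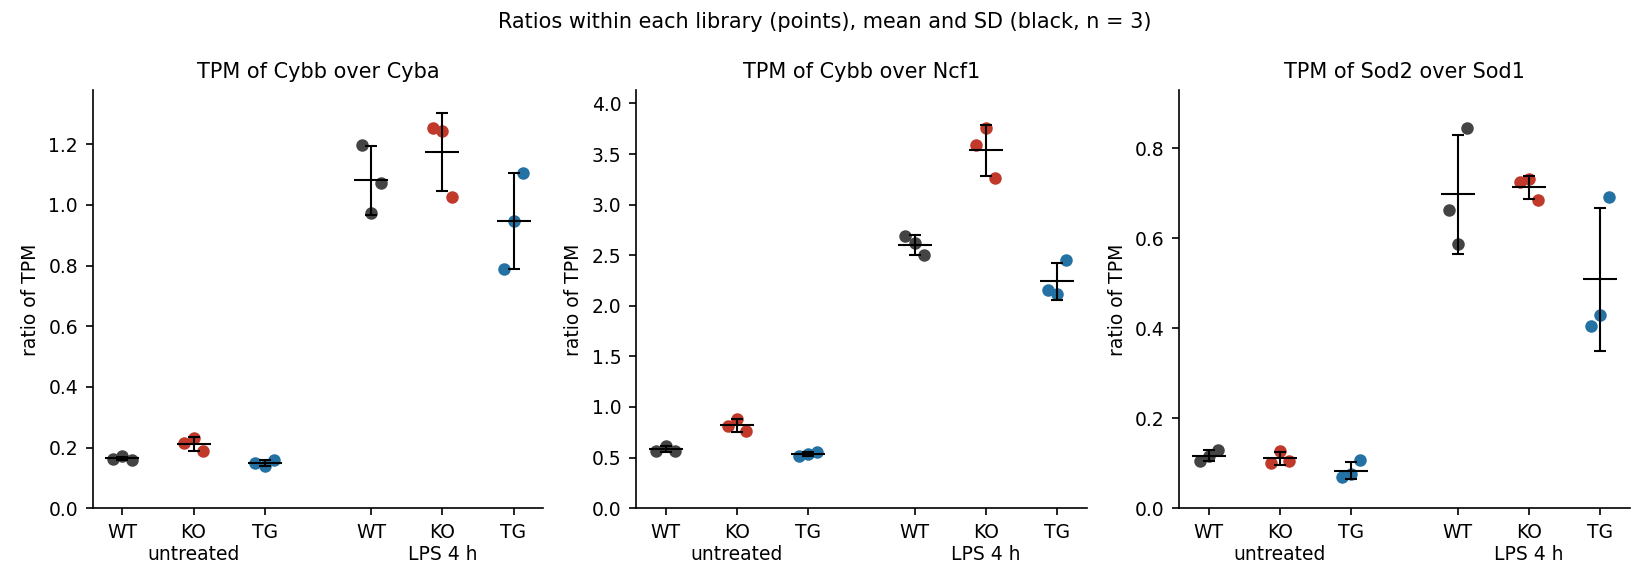
Ratios of the TPM of Cybb to Cyba, Cybb to Ncf1 and Sod2 to Sod1 in each library, by genotype and treatment, with black marks for the mean and SD of 3 libraries. All 3 ratios are higher in every LPS library than in every untreated one, and the GILZ KO libraries hold the highest ratios of Cybb to Ncf1 in both treatments.

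The genotype comparisons ask whether these genes differed between GILZ KO, GILZ TG and WT, of which WT also differed from both others in Lyz2 RNA. Between genotypes the members differed little. Ncf1 was the only one called by edgeR, with less RNA in GILZ KO than in GILZ TG without treatment and after LPS. On TMM counts the log2 fold change of Ncf1 in GILZ KO against GILZ TG was -0.32 ± 0.07 (SE) without treatment and -0.38 ± 0.06 after LPS (n = 3 per group, edgeR adjusted p = 0.0287 and 0.0137), which is 0.800 and 0.767 of the GILZ TG level. Of 8 members, 1 was thus called in each treatment, all the others falling short, beside 4.94% of all genes without treatment and 2.6% after LPS. On TMM counts the groups did not overlap for 4 members without treatment (Ncf1, Cyba, Cat and Rac2), beside 31.4% of all genes, and for 2 after LPS (Ncf1 and Sod2), beside 23.2%. The call of Ncf1 was lost on log2(TPM + 1) untreated (limma adjusted p = 0.0626). By edgeR it was lost without any 1 of the 3 GILZ KO libraries, with adjusted p-values of 0.121, 0.0902 and 0.092 untreated and 0.082, 0.053 and 0.0594 after LPS, and with replicate 3 as the only GILZ TG library (0.0642 and 0.0993), which lacked the high neutrophil and fibroblast markers. It was also lost without WT replicate 2 (0.0584) or GILZ TG replicate 1 or 2 (0.066 and 0.0501) untreated, and without GILZ TG replicate 1 after LPS (0.0543). The log2 fold change with GILZ TG replicate 3 alone was -0.44 and -0.43, no smaller than with all 3, and over all alternatives the adjusted p ranged from 0.00016 to 0.121 without treatment and from 1.94e-07 to 0.0993 after LPS.

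Against WT, no member was called by edgeR. In GILZ KO without treatment, 0 of 8 members were called beside 0.0951% of all genes, and 1 member had an unadjusted p under 0.05 beside 9.6% of all genes. This member was Ncf1, at -0.24 ± 0.07 (SE) on the log2 scale (95% confidence interval -0.39 to -0.09, edgeR adjusted p = 0.327). Ncf1 and Cybb did not overlap between the groups on TMM counts, and 17.5% of all genes did not. For Cybb the log2 fold change was 0.24, with an interval that touched 0 and an adjusted p of 0.522 by edgeR. After LPS, 0 of 8 members were called beside 0.0822% of all genes, and Ncf1 again was the 1 member with an unadjusted p under 0.05, beside 9.63%. Its log2 fold change was -0.27 ± 0.06 (SE, edgeR adjusted p = 0.192). DESeq2 called Ncf1 in this comparison (adjusted p = 0.0022), as it did 0.822% of all genes, and the adjusted p over all alternatives ranged from 0.0022 to 0.619. On TMM counts scaled over the 9 LPS libraries, Ncf1 and Sod2 did not overlap, beside 17% of all genes. Scaled over all 18 libraries, Sod2 did overlap, with GILZ KO replicate 1 at a CPM of 1162 and WT replicate 3 at 1164. Without treatment DESeq2 called no member, beside 0.626% of all genes, with an adjusted p of 0.0623 for Ncf1, the lowest in a range up to 0.809.

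In GILZ TG against untreated WT, 0 of 8 members were called by edgeR beside 0.642% of all genes, and 2 had an unadjusted p under 0.05 beside 14.1%. The log2 fold change of Cat was -0.26 ± 0.07 (SE, edgeR adjusted p = 0.13), and DESeq2 called it (adjusted p = 0.0133, in a range over alternatives of 0.0133 to 0.422), beside 2.47% of all genes. Sod1 was at 0.19 ± 0.07, with an edgeR adjusted p of 0.227. On TMM counts these 2 members did not overlap between the groups, beside 16.7% of all genes, while the TPM values of Cat did overlap. After LPS, 0 of 8 members were called by edgeR beside 0.46% of all genes and 0 by DESeq2 beside 2.25%, 0 had an unadjusted p under 0.05 beside 15.2%, and 1 (Cat) did not overlap on TMM counts beside 16.5%, although its TPM did. Without GILZ TG replicate 3, which had the fewest marrow cell markers of its genotype, Sod2 and Ncf4 were called lower in GILZ TG after LPS, at -0.36 and -0.38 (edgeR adjusted p = 0.0176 and 0.0329), in a fit that called 8.52% of all genes. In GILZ TG, Sod2 after LPS was 318 and 314 TPM in replicates 1 and 2 and 398 in replicate 3, the latter within the WT range of 375 to 445. Ncf4 was 236 and 219 in replicates 1 and 2 and 293 in replicate 3, again within the WT range of 246 to 325. The summed neutrophil and fibroblast markers were higher in the same 2 libraries, and their part in these values was not tested.

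Sod2 was the member closest to the threshold in GILZ KO against GILZ TG after LPS, at a log2 fold change of 0.40 ± 0.11 (SE, edgeR adjusted p = 0.0665, 0.00169 to 0.603 over all alternatives), and DESeq2 called it (adjusted p = 0.00796). With replicate 3 as the only GILZ TG library, the one with the lowest marrow cell markers of its genotype, its log2 fold change was 0.16 (edgeR adjusted p = 0.603). Without that library, 4 members were called after LPS, in a fit that called 11.2% of all genes. Beside Ncf1, these were Sod2 at 0.54, Ncf4 at 0.41 and Cybb at 0.33 (edgeR adjusted p = 0.00169, 0.0187 and 0.0163). With all libraries Ncf4 and Cybb were at 0.27 and 0.19 (edgeR adjusted p = 0.247 and 0.361), and with replicate 3 alone at 0.00 and -0.06 (edgeR adjusted p = 0.994 and 0.869). For Sod2, all 3 GILZ KO libraries, at 456 to 459.9 TPM, were above all 3 GILZ TG libraries, at 314 to 398. Untreated, Cat was at 0.22 ± 0.07 and Cyba at -0.17 ± 0.06 in the same comparison, with edgeR adjusted p-values of 0.0763 and 0.105, and DESeq2 called both (adjusted p = 0.0228 and 0.0367, the lowest in ranges up to 0.241 and 0.275). With Ncf1, DESeq2 thus called 3 members untreated beside 9.65% of all genes, and with Sod2 it called 2 after LPS beside 5.88%. Cybb was at 0.27 ± 0.11 untreated (edgeR adjusted p = 0.157). Without GILZ TG replicate 3 it was at 0.41 and called (edgeR adjusted p = 0.0121), in a fit that called 10.1% of all genes, and with replicate 3 as the only GILZ TG library it was at 0.03 (edgeR adjusted p = 0.92). The log2 fold changes of the members in GILZ KO against GILZ TG were 0.40 or less in size in both treatments, while those of Cybb after LPS were near 3.

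**Figure D4:**
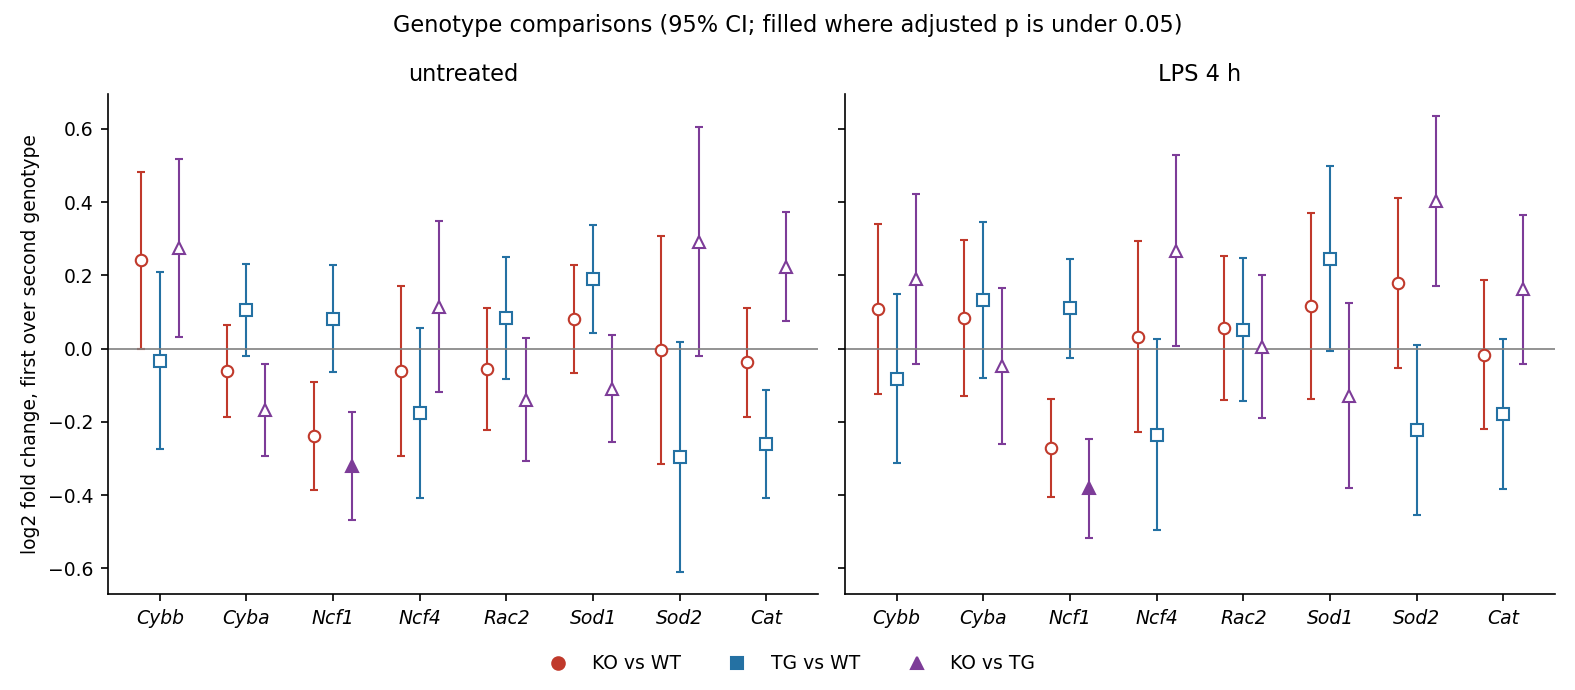
Log2 fold change of each member between genotypes, without treatment and after LPS, on TMM counts with 95% confidence intervals. Ncf1 in GILZ KO against GILZ TG, at -0.32 and -0.38, is the only member past the threshold by edgeR.

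The response to LPS did not differ by genotype in a way that passed the test for any member. By the edgeR interaction test, 0 of 8 members were called for GILZ KO against WT beside 0.0152% of all genes, and 0 for GILZ TG against WT beside 0.00759%. At an unadjusted p under 0.05, 0 members stood beside 6.36% and 3.09% of all genes, and DESeq2 called 0 members in either, beside 0.159% and 0.0152%. The differences of the log2 fold change were 0.16 or less in size for GILZ KO and 0.07 or less for GILZ TG. For Cybb the difference was -0.16 in GILZ KO, with a 95% confidence interval of -0.52 to 0.20, and for Ncf1 it was -0.06, with an interval of -0.25 to 0.13.

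GILZ KO had the highest TPM of Cybb and the lowest of Ncf1, and their ratio is given without a test, as it was chosen after these values were seen. The ratio of Cybb to Ncf1 TPM in untreated cells was 0.583 ± 0.029 (SD, n = 3) in WT, 0.818 ± 0.061 in GILZ KO and 0.534 ± 0.022 in GILZ TG. After LPS it was 2.60 ± 0.098, 3.54 ± 0.252 and 2.24 ± 0.182. The lowest GILZ KO library was above the highest of the other genotypes in both treatments, at 0.761 against 0.617 and at 3.26 against 2.69.

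Of 18 further genes of NADPH oxidases and their regulators, 11 were abundant enough to test. Nox3, Nox4, Noxa1, Duox1, Duox2, Duoxa1 and Duoxa2 were not, and the highest TPM of Nox3 and Nox4, catalytic subunits of other tissues, was 0.25 and 0.05. After LPS, 5 of the 11 rose and 2 fell in WT, 6 rose and 2 fell in GILZ KO, and 5 rose and 2 fell in GILZ TG on TMM counts, while on log2(TPM + 1) limma called 2 higher and 7 lower in each. In WT this was 7 of 11 on TMM counts beside 68.6% of all genes, and 7 of 11 lower on log2(TPM + 1) beside 68.4%, so that these counts do not set the genes apart. Nox1, a catalytic subunit best known from colon epithelium, had a TPM of 2.91, 2.13 and 2.31 in untreated WT and of 16.6, 17.9 and 25.3 after LPS. Its groups did not overlap, and its log2 fold change was 3.69 ± 0.29 (SE) on TMM counts (edgeR adjusted p = 3.49e-09) and 2.58 on log2(TPM + 1). By TPM, Nox1 RNA remained far below Cybb RNA in each library. Prkcd, a kinase that phosphorylates p47phox, rose in WT by 1.85 ± 0.11 on TMM counts (edgeR adjusted p = 9.37e-11) and by 1.20 on log2(TPM + 1). Its mean TPM went from 226 to 519.6. For Rac1 in WT the log2 fold change was 0.37 ± 0.08 on TMM counts (edgeR adjusted p = 0.000306) but -0.28 on log2(TPM + 1) (limma adjusted p = 0.000471), a reversal of direction. Pak1, another kinase of p47phox, was lower on both scales, at -0.45 and -1.04 in WT (edgeR adjusted p = 2.99e-06), its TPM going from 37.9 ± 3.47 to 17.8 ± 0.90 (SD). Between genotypes and for the LPS response, edgeR called 0 of the 11. At most 2 had an unadjusted p under 0.05 in any comparison (GILZ TG against untreated WT, beside 14.1% of all genes). DESeq2 called 1 of the 11 in each pairing of untreated genotypes. With WT, it was 1 higher in GILZ KO (0.626% of all genes) and 1 lower in GILZ TG (2.47%). With GILZ TG, it was 1 higher in GILZ KO (9.65%). Between genotypes after LPS, and for the LPS response, DESeq2 called 0.

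Of 18 further enzymes that handle superoxide or peroxide, all were tested for LPS, and 8 rose in each genotype on TMM counts, with 1 falling in WT and in GILZ KO and 0 in GILZ TG. In WT, 9 of 18 were thus called beside 68.6% of all genes, and 8 rose beside 33.5%. On log2(TPM + 1), 15 of these genes were abundant enough, and limma called 2 higher and 8 lower in WT and GILZ KO and 2 higher and 7 lower in GILZ TG, beside 16.2% of all genes higher and 68.4% lower in WT. Prdx5, a peroxiredoxin of mitochondria, peroxisomes and cytosol, had a TPM of 433, 493 and 569 in untreated WT and of 1282, 1316 and 1276 after LPS. It rose in WT by 1.99 ± 0.10 on TMM counts (edgeR adjusted p = 1.42e-11) and by 1.38 on log2(TPM + 1). Prdx1, an abundant cytosolic peroxiredoxin, went from a mean TPM of 3947 to 4904 in WT, a log2 fold change of 0.94 on TMM counts (edgeR adjusted p = 3.13e-08) and 0.31 on log2(TPM + 1). Gpx3 and Sod3, both secreted enzymes, were scarce, with mean TPM of at most 2.46 and 1.12 in any group. Their log2 fold changes in WT of 0.70 and 1.08 on TMM counts did not pass the edgeR test (adjusted p = 0.118 and 0.336). Sod3 had a TPM of 1.14, 1.24 and 0.02 in untreated GILZ TG and of 1.39, 1.81 and 0.17 after LPS, and of 0.31 at most in WT and GILZ KO. It was thus higher in GILZ TG replicates 1 and 2 alone, which also had the high stromal fibroblast markers, and their part in it was not tested.

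**Figure D5:**
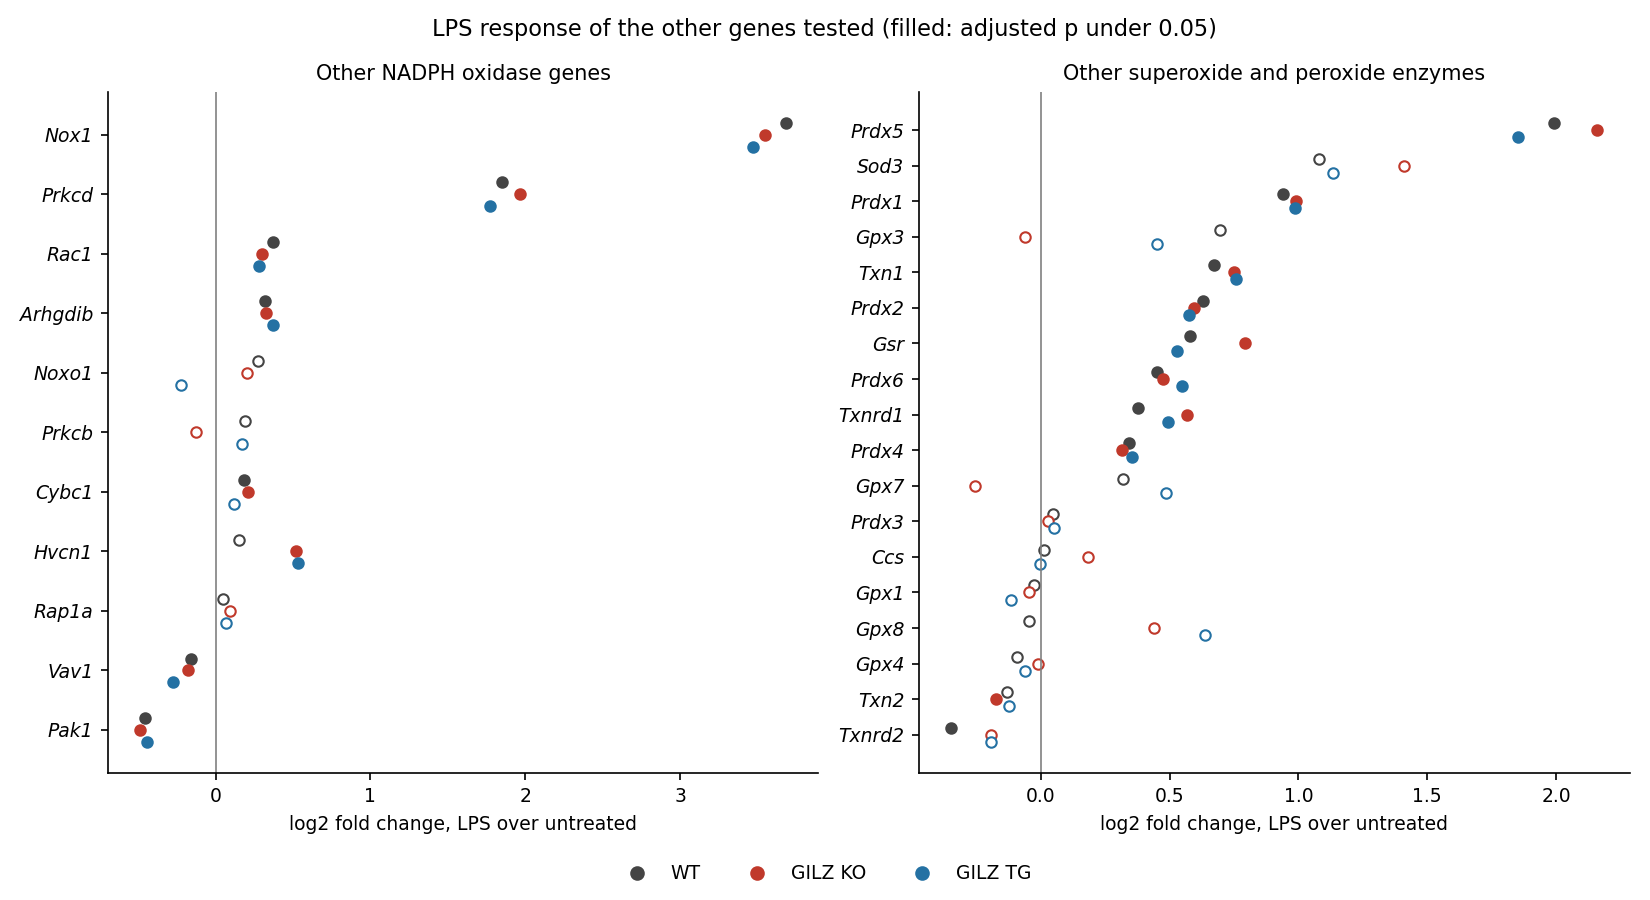
Log2 fold change after LPS on TMM counts of the other NADPH oxidase genes and of the other superoxide and peroxide enzymes tested, with a point for each genotype, filled where the edgeR adjusted p is under 0.05. Nox1, Prkcd and Prdx5 lie above 1 in each genotype, and Pak1 and Vav1 below 0.

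Against WT, edgeR and DESeq2 called 0 of the 16 enzymes tested between genotypes, with at most 3 at an unadjusted p under 0.05, in GILZ KO after LPS, beside 9.63% of all genes. In GILZ KO against GILZ TG, edgeR called 1 of these enzymes without treatment and 1 after LPS, beside 4.94% and 2.6% of all genes, with 7 and 6 at an unadjusted p under 0.05 beside 24.6% and 19.1% of all genes. DESeq2 called 4 without treatment, all lower in GILZ KO, beside 9.65% of all genes, and 1 higher and 2 lower after LPS, beside 5.88%. Ccs, the copper chaperone that loads Sod1, had a TPM of 36.1, 38.6 and 41.1 in untreated GILZ KO, 47.3, 48.6 and 46.6 in GILZ TG and 42.1, 40.9 and 37.1 in WT. GILZ TG was above both other genotypes, and the log2 fold change of GILZ KO against GILZ TG was -0.33 ± 0.06 (SE, edgeR adjusted p = 0.0219). On log2(TPM + 1) it did not pass, at a limma adjusted p of 0.0594. Gsr, glutathione reductase, had a TPM after LPS of 216, 196 and 194 in GILZ KO, 134, 143 and 157 in GILZ TG and 149, 139.7 and 168 in WT. GILZ KO was the highest genotype, at a log2 fold change of 0.47 ± 0.09 against GILZ TG (edgeR adjusted p = 0.0271).

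The genes most like each member were found by Pearson correlation of log2(TPM + 1) over the 18 libraries, among 9423 genes with a mean TPM of at least 5. These coefficients are descriptions, since all genes share the libraries and the LPS treatment. Cybb was most like Plek (0.997), Sp100 (0.997) and Trim30a (0.996), and Sod2 most like Fcgr2b (0.997), Tlr2 (0.996) and Batf (0.996), with 1190 and 1115 genes above 0.9. Sod1 went with Rps2 (0.980), Aamdc (0.979) and Capzb (0.978), and Cat with Eprs (0.976), Dido1 (0.974) and Akr1e1 (0.974), with 1871 and 3033 genes above 0.9. Rac2 had 6 genes above 0.9, with Pilrb1 (0.941), Smpdl3b (0.920) and Dpysl2 (0.916) in front, and Cyba had 93, led by Psmd4 (0.955), Uqcrq (0.949) and Capg (0.949). Ncf1 and Ncf4 had none. The nearest genes were Mcur1 (0.898), Axl (0.892) and ENSMUSG00000089672 (0.882) for Ncf1 and Idi1 (0.869), Gdpd1 (0.856) and Pira2 (0.832) for Ncf4. On this scale Cat and Sod1, whose TPM was lower after LPS, thus had the most genes with a pattern over the libraries like their own, and Ncf1 and Ncf4 the fewest. The median of all genes on log2(TPM + 1) also moved after LPS, by -0.57 in WT, where limma called 68.4% of genes lower. Likeness on TMM counts, on which edgeR did not call Cat or Sod1 after LPS, was not computed.

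The effective length, which is the mean transcript length available to reads and moves when a gene's isoform mix moves, was compared between untreated and LPS libraries by an exact two-sided permutation test within genotypes (8000 splits, smallest possible p 0.00025). Cybb had a mean of 3399 bases untreated and 3307 after LPS, a difference of -92.2 bases (p = 0.162, exact permutation test). Ncf1, Ncf4 and Cat differed by -5.0, -3.7 and -7.4 bases (p = 0.837, 0.754 and 0.695, exact permutation tests). Cyba, Rac2, Sod1 and Sod2 have 1 isoform each in the deposited table, so that a change of isoforms could not show in their effective length.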

How the data were processed

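BMMs of 3 genotypes with and without LPS were sequenced as poly(A) RNA from directional libraries (single reads of 75 nt), and the authors mapped the reads with the grape-nf pipeline to GRCm38. The deposited tables list, for 38887 genes, an expected count (estimated reads, not normalized), the TPM and an effective length in bases, a quantity the authors' quantification used to compute TPM. The authors' DESeq2 1.40.2 tables of log2 fold changes and p-values were used for gene symbols only. Groups were taken from the sample labels. Members and lists were chosen with earlier results of these data known.

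Expected counts were rounded, filtered with filterByExpr (12621 genes without treatment, 12164 after LPS and 13169 over all 18 libraries), scaled with TMM factors and fitted in edgeR 4.0.16 (R 4.3.3) with its quasi-likelihood model. Genotypes were compared within the 9 libraries of a treatment, and LPS effects and their differences over all 18 libraries. Benjamini-Hochberg adjustment was made over all genes of a fit, and 0.05 was the threshold. Alternatives were DESeq2 1.42.0, its size factors in edgeR, no filter, limma 3.58.1 on log2(TPM + 1) and log2(TPM + 0.1) for genes with a mean TPM of at least 1, other sets of libraries, a replicate block and leaving out each library. Library totals in place of TMM factors were added after seeing the data. The genes named were all members, the genotype and LPS check genes, the leading gene of each marker list, and the 3 genes most like each member. From the lists of further oxidase genes and enzymes, those that edgeR called between genotypes were named. The 4 of each of these lists with the largest change after LPS in WT were named too. Not all marker genes called between genotypes are named. The fits were tested on simulated data. Promoters came from RefSeq (GRCm38.p6). The number of reads per gene sets the precision of low genes, and the lowest count of a member in a library was 2187 (Ncf4). A few genes that the lists or the rule would name are not reported here, and the lists were counted without them.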

Additional observations from a re-analysis of the deposited data

Results flagged for a closer look

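The response to LPS differed between genotypes for Tsc22d3 itself, by a test of the difference over all 18 libraries. Its log2 fold change after LPS was -1.10 in WT, 0.92 in GILZ KO and 0.33 in GILZ TG on TMM counts, and -1.51, 0.23 and -0.24 on log2(TPM + 1), so that the direction in GILZ TG turned with the scale. On TMM counts the difference from WT was 2.02 ± 0.22 (SE) in GILZ KO and 1.43 ± 0.16 in GILZ TG, with edgeR adjusted p-values of 0.000782 and 0.00139, and on log2(TPM + 1) it was 1.74 and 1.26 (limma adjusted p = 5.52e-05 and 0.0026). In GILZ KO the TPM of Tsc22d3 was between 1.89 and 3.28 in all 6 libraries. Tsc22d3 is the gene that the genotypes alter, and no oxidase, dismutase or catalase gene among the 8 passed this test.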

How the results depend on the processing

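After LPS, the 24 values of the members gave 344 alternative values in all. Of these, 303 kept their side of the threshold, 8 fell below it and 6 rose past it. A further 27 were reversed with a call in the main fit, the alternative or both. Some of the 303 changed sign without a call, such as Sod1 in WT, from 0.0322 to as low as -0.073 leaving out 1 library. The 27 reversals with a call came with scales that follow the library total. For library totals, log2(TPM + 1) and log2(TPM + 0.1) in turn, Cyba was at -0.336, -0.291 and -0.291 in WT, -0.181, -0.181 and -0.181 in GILZ KO and -0.313, -0.277 and -0.277 in GILZ TG. Ncf4 was at -0.0515, -0.00657 and -0.00662 in WT and -0.12, -0.093 and -0.0933 in GILZ TG. Sod1 was at -0.647, -0.605 and -0.606 in WT, -0.598, -0.594 and -0.595 in GILZ KO and -0.589, -0.561 and -0.562 in GILZ TG, and Cat at -0.653, -0.616 and -0.619 in GILZ TG. The median of all genes moved with them. The 16 values of the LPS response kept their side of the threshold in 312 of 312 alternative values, and the 48 genotype values in 867 of 896, with 14 weaker and 15 newly past it.

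The number of members called in untreated GILZ KO against GILZ TG (1) was 3 by DESeq2, 0 on log2(TPM + 1), 0 on log2(TPM + 0.1) and 0 with replicate 3 as the only GILZ TG library, which was assumed to vary like the other groups, and 0 to 2 leaving out 1 library. After LPS it (1) was 2 by DESeq2, 2 without a filter, 2 with library totals, 0 with that single GILZ TG library and 0 to 4 leaving out 1 library. In GILZ TG against WT DESeq2 called 1 untreated, and leaving out 1 library gave 0 to 2 after LPS. In GILZ KO against WT after LPS DESeq2 called 1. The cause was not tested.

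Same-numbered libraries of different genotypes had a correlation of deviations above 0.1 in 3 of 18 pairs (-0.144 to 0.261), and untreated and LPS libraries with one number in 4 of 9, with 11 of 18 closest to their own number. In GILZ TG all 3 of these pairs were above 0.1 (0.266, 0.397 and 0.605). The labels do not say that a number marks one mouse, and the numbers were not taken as pairs. Untreated and LPS libraries may therefore share mice, which the main fits leave out of account. A genotype difference found in both treatments, such as that of Ncf1, need not be independent in them. With a replicate block, 2 members were called in untreated GILZ KO against GILZ TG, Cat in addition (adjusted p = 0.0343, within a range of 0.0228 to 0.241), and no other count of members changed.

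Over all genes the counts called moved more. In GILZ KO against WT, 12 untreated became 5 to 79 and 10 after LPS became 4 to 100. In GILZ TG against WT, 81 became 16 to 665 and 56 became 15 to 1067. In GILZ KO against GILZ TG, 623 became 34 to 1306 and 316 became 24 to 1403. For the LPS response, 2 became 1 to 21 and 1 became 0 to 8. The highest counts for GILZ TG came without its replicate 3.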
